A study of Mus musculus with 4 samples.

Results

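The chemokine system of mouse mesothelium was examined as 57 genes, 36 ligands and 21 receptors, of the 19938 genes that have a probe with a single gene symbol on the array. Members were taken by name, as all Ccl, Cxcl, Xcl and Cx3cl ligands, the ligands Pf4 and Ppbp, the Ccr, Cxcr, Xcr and Cx3cr receptors and the atypical receptors Ackr1 to Ackr4. For a gene measured by several probes (probe sets), the brightest on average was kept, which touched only Ccl19 and Ccl25. A further 7 probes that match these names carry several symbols and were not used. RNA had been taken from 2 samples of omentum, the visceral mesothelium, and 2 of parietal mesothelium, teased from the skeletal muscle of the body wall, and each sample was hybridized to 1 Affymetrix Mouse Gene 1.0 ST array. All samples came from untreated adult mice on a c57bl/6 background with the genotype Wt1-cre;Rosa26ReYFP, in which Cre made under control of Wt1, a gene of mesothelial cells, turns on a yellow fluorescent protein. The RNA came from mesothelium isolated as tissue, with no cell sorting described. By the fluorescent marker, the paper judged nearly all of its input to be mesothelial cells. The sources used here do not say how many animals lie behind each array. Each sample title gives a biological replicate number within its tissue. P-values therefore measure the spread between samples labelled as biological replicates, and the technical part of that spread is not known.

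Chemokines are small secreted proteins that direct the movement of leukocytes and other cells. They are named by the spacing of their first cysteines, as CC, CXC, XC and CX3C chemokines, and act on receptors that signal through inhibitory G proteins, while atypical receptors bind chemokines without such signaling and remove or transport them. Inflammatory chemokines are induced in injury and infection, whereas homeostatic ones such as Cxcl12, Cxcl13 and Ccl19 place cells in bone marrow and lymphoid tissue. The omentum holds milky spots, which are clusters of lymphocytes and macrophages under the mesothelium, and their B cells are attracted by Cxcl13.

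Values are log2 signals, so a difference of 1 is a doubling, and differences are visceral minus parietal. Tissue differences were tested with limma, a linear model that borrows the spread from other genes. A gene counted as called when its p, adjusted by Benjamini-Hochberg over all 19938 genes, was under 0.05 and its fold reached 1.5, or 0.585 on the log2 scale. Signals of different genes come from different probes and were not compared with each other. Array medians lay between 7.38 and 7.41. The mesothelial markers Upk3b and Lrrn4 were at 12.96 or more on all 4 arrays. Of 15 mesothelial genes 10 (66.7%, against 9.60% of all genes) were called, 9 of them toward parietal mesothelium and 1, Wt1, toward visceral mesothelium (median -0.91). Markers of other cells differed between the tissues. Of 26 macrophage and dendritic cell genes, 22 (84.6%, against 5.22% of all genes) were called higher in visceral mesothelium. The list means were 9.81 and 9.89 in visceral against 7.90 and 8.07 in parietal arrays. The 4 not called were Aif1 (0.57), Marco (-0.07) and the dendritic cell genes Flt3 (0.15) and Itgax (0.08). All 18 skeletal muscle genes (100%, against 4.39% of all genes) were called higher in parietal tissue, with list means of 6.87 and 6.90 against 11.80 and 12.21. In such samples, fewer cells of a type and less RNA per cell cannot be told apart.

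Of the 36 ligands, 7 were called higher in visceral mesothelium and 1 higher in parietal mesothelium. They were Cxcl13, Ccl6, Ccl9, Ppbp, Pf4, Ccl24 and Cxcl12 in the one direction and Cxcl10 in the other. This is 22.2% of the ligands, against 9.60% of all genes called in either direction, and 19.4% against 5.22% for genes higher in visceral mesothelium. For genes higher in parietal mesothelium it was 2.78% against 4.39%. The median difference over all ligands was 0.07, against 0.00 over all genes, so that the called ligands stood apart from a family that mostly differed little. Of the 21 receptors, Ccr1, Ackr1 and Ccr2 were called higher in visceral mesothelium and 0 in parietal mesothelium. This is 14.3% of the receptors, against 5.22% of all genes called in that direction and 9.60% called in either.

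**Figure D1:**
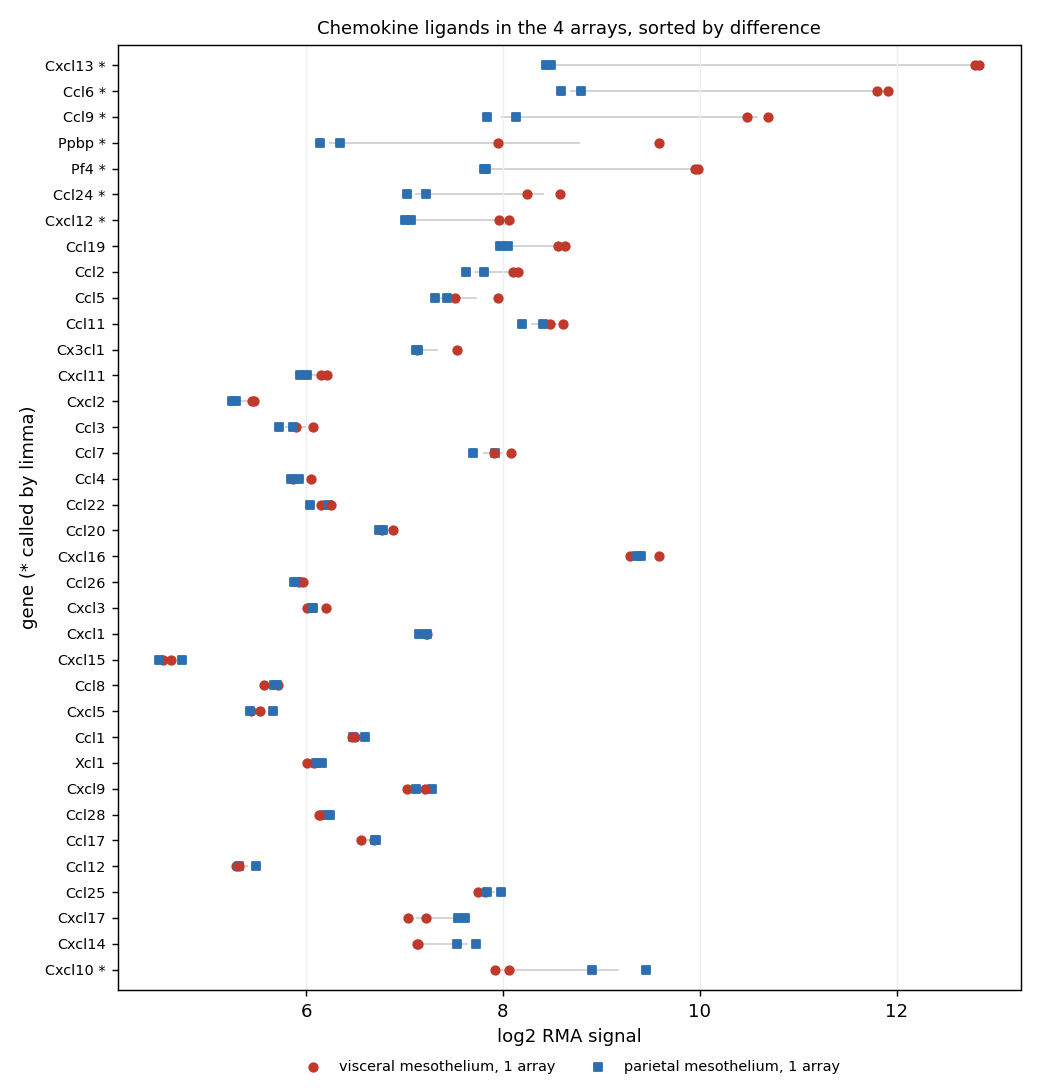
Log2 RMA signal (x axis) of the 36 chemokine ligands (y axis, sorted by difference). Circles are visceral and squares parietal arrays, 1 point per array, grey lines join the group means and asterisks mark genes called by limma; Cxcl13 lies at 12.84 and 12.79 in visceral against 8.44 and 8.49 in parietal arrays, and signals of different genes are not comparable.

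The region upstream of the start of transcription is shown for the ligands with the largest differences and for Cxcl10 with its neighbour Cxcl9, so that the letters of called genes can be read beside those of a neighbour that was not called. Each is the 250 bases before the start of the gene, from RefSeq on build GRCm38.p6, written 5′ to 3′ on the strand of the gene. Capitals mark matches, on either strand, to a TATA box (TATAAA), an interferon-stimulated response element (GAAA, any 2 bases, GAAA), an NF-kB motif (GGG, any 2 bases, TT, any base, CC) or a motif of the myeloid factor PU.1 (GAGGAAGT).
Cxcl13 (chr5:95956689-95956938, plus strand): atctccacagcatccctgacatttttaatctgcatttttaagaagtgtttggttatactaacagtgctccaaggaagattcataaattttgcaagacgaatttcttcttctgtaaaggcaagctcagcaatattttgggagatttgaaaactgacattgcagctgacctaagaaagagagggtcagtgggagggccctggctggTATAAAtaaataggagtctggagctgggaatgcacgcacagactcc
Ccl6 (chr11:83593088-83593337, minus strand): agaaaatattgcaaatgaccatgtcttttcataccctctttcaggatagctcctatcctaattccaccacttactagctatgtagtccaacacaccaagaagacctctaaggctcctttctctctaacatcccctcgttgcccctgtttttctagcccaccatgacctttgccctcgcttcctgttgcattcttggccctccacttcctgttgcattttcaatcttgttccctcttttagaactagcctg
Ccl9 (chr11:83578637-83578886, minus strand): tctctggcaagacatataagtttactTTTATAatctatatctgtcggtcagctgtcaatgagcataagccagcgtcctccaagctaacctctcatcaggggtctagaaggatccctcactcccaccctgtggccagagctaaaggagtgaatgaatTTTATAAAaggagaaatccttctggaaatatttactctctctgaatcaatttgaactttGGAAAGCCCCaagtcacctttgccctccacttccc
Ppbp (chr5:90768268-90768517, plus strand): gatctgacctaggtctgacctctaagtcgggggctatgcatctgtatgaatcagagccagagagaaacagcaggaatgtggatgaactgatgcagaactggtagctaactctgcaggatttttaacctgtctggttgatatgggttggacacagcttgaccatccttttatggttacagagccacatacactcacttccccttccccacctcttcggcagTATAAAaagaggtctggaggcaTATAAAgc
Pf4 (chr5:90772185-90772434, plus strand): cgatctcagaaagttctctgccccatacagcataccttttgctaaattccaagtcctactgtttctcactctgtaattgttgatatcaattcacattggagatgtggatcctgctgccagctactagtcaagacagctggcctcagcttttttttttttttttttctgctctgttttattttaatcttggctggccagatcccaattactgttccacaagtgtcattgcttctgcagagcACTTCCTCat
Cxcl10 (chr5:92348890-92349139, minus strand): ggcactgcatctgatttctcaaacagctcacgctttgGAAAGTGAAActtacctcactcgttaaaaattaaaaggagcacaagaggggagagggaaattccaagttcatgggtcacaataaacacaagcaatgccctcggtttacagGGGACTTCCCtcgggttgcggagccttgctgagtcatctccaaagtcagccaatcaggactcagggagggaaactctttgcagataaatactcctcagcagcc
Cxcl9 (chr5:92328080-92328329, minus strand): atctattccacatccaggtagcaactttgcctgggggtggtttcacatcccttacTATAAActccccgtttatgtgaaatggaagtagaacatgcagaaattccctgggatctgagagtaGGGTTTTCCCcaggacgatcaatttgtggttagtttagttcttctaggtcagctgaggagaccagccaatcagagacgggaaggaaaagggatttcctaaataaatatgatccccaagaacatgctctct
The upstream windows of Cxcl13, Ccl9, Ppbp and Cxcl9 hold TATAAA, a match found in 12.4% of all 32851 windows. In Cxcl13 it starts 46 bases and in Ppbp 30 and 8 bases before the start of the gene. Of the ligands shown, Ccl9, Cxcl10 and Cxcl9 hold the NF-kB motif, against 4.11% of all windows. The window of Cxcl10 also holds the interferon-stimulated response element, at 213 bases before the start, a match found in 2.98% of all windows and not in the window of Cxcl9. In Ccl9, 2 of the TATAAA matches overlap each other on opposite strands. Pf4 holds the PU.1 motif 10 bases before the start, against 2.44% of all windows. The window of Ccl6 holds none of these letters. Of the members, 43 had a window, and among these the NF-kB motif was present in 10, 5 of them on the list of CXC ligands (Cxcl1, Cxcl2, Cxcl3, Cxcl9 and Cxcl10), while the response element was present in 3, Ccl19, Cxcl10 and Cxcl14. These matches describe the letters and not sites at which a factor was bound.

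The ligand with the largest difference was Cxcl13, which draws B cells into follicles through the receptor Cxcr5. Its log2 signal was 12.84 and 12.79 in the visceral arrays and 8.44 and 8.49 in the parietal arrays. Both arrays of a tissue lay within 0.05 of each other, and the tissues were far apart. The difference was 4.35 (20.4-fold), with a standard error of 0.08 and a limma adjusted p of 2.94e-05. Cxcr5, its receptor on B cells, was at 5.95 and 6.15 in visceral and 5.49 and 5.54 in parietal arrays, a difference of 0.54 (adjusted p = 0.0214) that did not reach the fold threshold. The arrays of the tissues did not overlap for either gene. Among 12 B cell markers, 4 (33.3%, against 5.22% of all genes) were called higher in visceral mesothelium. They were Bank1 (difference 1.99), Cd79a (1.61), Cd79b (1.80) and Ms4a1 (1.55), the last named here because the count is small. The list means were 7.26 and 7.59 in visceral against 6.56 and 6.59 in parietal arrays, and the follicular B cell genes Cr2 (0.38) and Fcer2a (0.19) were not called. The part of B cells in the Cxcl13 and Cxcr5 signals was not tested. Ccl19, which attracts T cells and dendritic cells through Ccr7, stood at 8.56 and 8.63 in visceral and 7.97 and 8.05 in parietal arrays. Its difference of 0.58 passed the adjusted p (0.00901) but lay just under the fold threshold. The 5 probes of Ccl19, of which 2 carry identical values, gave differences of 0.41 to 0.71, and their mean, 0.60, was called. Ccr7 itself differed by 0.09, with overlapping arrays.

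Ccl6 and Ccl9 are CC chemokines of rodents that are made mainly by myeloid cells and act on Ccr1. Ccl6 was at 11.80 and 11.91 in visceral and 8.59 and 8.79 in parietal arrays, and the difference was 3.17 (standard error 0.10, adjusted p = 7.14e-05), or 8.98-fold. Ccl9 was at 10.48 and 10.69 against 7.84 and 8.13, a difference of 2.60 (standard error 0.13, adjusted p = 0.000258) or 6.06-fold. For both genes the lowest visceral array stood well above the highest parietal array. Ccl24, an eosinophil attractant that macrophages make and that acts on Ccr3, had signals of 8.24 and 8.58 in visceral against 7.03 and 7.22 in parietal arrays. It was 2.45-fold higher (difference 1.29, standard error 0.14, adjusted p = 0.00316). Its receptor Ccr3 differed by 0.27 and was not called (adjusted p = 0.106). The macrophage markers named by the lowest adjusted p moved the same way on these arrays, with Mrc1 higher by 2.69, Ly86 by 2.90 and Fcer1g by 2.87. Their part in the signals of Ccl6, Ccl9 and Ccl24 was not tested.

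Pf4 and Ppbp are CXC chemokines stored in the granules of platelets. Pf4 is also made by some macrophages, and peptides of Ppbp attract neutrophils through Cxcr2. Pf4 was at 9.95 and 9.98 in visceral and 7.83 and 7.81 in parietal arrays, with almost no spread within a tissue. The difference was 2.15 (standard error 0.08, adjusted p = 0.000106), or 4.43-fold. Ppbp was at 9.58 and 7.95 in visceral and 6.34 and 6.14 in parietal arrays, so that the visceral arrays differed by more than most ligands did between tissues. Its difference was 2.53 (standard error 0.49, 95% interval 1.30 to 3.75, adjusted p = 0.0245). Leaving out visceral replicate 1 gave 1.71 and leaving out visceral replicate 2 gave 3.34, and when p-values were adjusted over all 35556 probes it was no longer called (adjusted p = 0.0747). Genes of neutrophils were also highest on visceral replicate 1, with Ngp at 8.47 there and 7.16 on visceral replicate 2, S100a8 at 6.73 and 5.89, and Mpo at 7.42 and 6.70. These genes were named after their values were seen, and their relation to Ppbp was not tested. Of 5 measured genes of platelets and megakaryocytes, 0 were called by limma, against 9.60% of all genes. A list of 5 genes is too short to set apart from that share. Treml1 (difference 0.57, adjusted p = 0.0284) and Gp9 (0.48) had an unadjusted p under 0.05, a share to set beside 27.1% of all genes. Itga2b, which defines the lineage, differed by -0.07, and the list means were 7.18 and 7.16 in visceral against 6.99 and 6.93 in parietal arrays. The part of platelets in the Pf4 and Ppbp signals was not tested. Cxcr2 differed by 0.17 and was not called.

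Cxcl12 is the homeostatic ligand of Cxcr4 and is made by stromal cells. It was at 7.96 and 8.06 in visceral and 7.00 and 7.07 in parietal arrays, 1.96-fold higher in visceral mesothelium (difference 0.97, standard error 0.09, adjusted p = 0.0016). Its signaling receptor Cxcr4 was at 7.54 and 7.38 against 6.87 and 7.12. This difference of 0.47 was not called (adjusted p = 0.0555). The atypical receptor Ackr3, which also binds Cxcl12 and takes it up, pointed the other way, at 8.20 and 8.17 in visceral and 8.60 and 8.87 in parietal arrays. Its difference of -0.56 (95% interval -0.83 to -0.28, adjusted p = 0.0274) fell short of the fold threshold, and was called at -0.59 after quantile normalization and at -0.69 without parietal replicate 1. Of 14 genes of stromal cells of lymphoid tissue, 5 (35.7%, against 5.22% of all genes) had higher called signals in visceral mesothelium. They were the leptin receptor Lepr (3.81), which marks Cxcl12-producing stroma in bone marrow, Ccdc3 (3.95), the pericyte receptor Pdgfrb (1.02), the adhesion molecule Vcam1 (0.92) and the cytokine Il33 (0.77). The other 4 called genes of that list, all of whose called genes are given, were higher in parietal mesothelium, namely Thy1 (-0.87), Icam1 (-0.92), Pdpn (-0.62) and Bst1 (-0.77). These 4 are 28.6% of the list, against 4.39% of all genes. The list means were 9.32 and 9.41 in visceral against 8.81 and 8.90 in parietal arrays, and the part of stromal cells in the Cxcl12 signal was not tested.

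The only ligand called higher in parietal mesothelium was Cxcl10, an interferon-induced chemokine that attracts activated T cells through Cxcr3. Its signal was 7.92 and 8.06 in visceral against 9.45 and 8.90 in parietal arrays. The parietal arrays differed by more than the visceral ones, yet both stood above them. The difference was -1.19 (standard error 0.18, 95% interval -1.64 to -0.73, adjusted p = 0.0115), or 2.27-fold. Without visceral replicate 1 it was -1.11 and no longer called (adjusted p = 0.0592). The other ligands of Cxcr3 did not share this direction by any called amount. Cxcl9 was at 7.03 and 7.21 against 7.28 and 7.12, a difference of -0.08, and Cxcl11 differed by 0.20 (adjusted p = 0.192). Cxcr3 differed by 0.13, with overlapping arrays. Of 11 genes listed for adipocytes, 2 (18.2%, against 9.60% of all genes) were called, both higher in parietal mesothelium. The list means were 7.00 and 7.14 in visceral against 7.84 and 7.43 in parietal arrays. The other 9, among them Plin1 (-0.28), Fabp4 (-0.43) and Lipe (0.07), were not called. The list did not move as one between the parietal arrays. Both called genes were lower on parietal replicate 1, where Cxcl10 was highest, than on parietal replicate 2, with Slc2a4 at 8.58 and 9.23 and Plin4 at 8.24 and 8.63. So was the mean of the skeletal muscle list, at 11.80 and 12.21. Adipoq (7.50 and 5.96) and Retn (9.46 and 7.46), which were not called and were named after their values were seen, went the other way. The relation of these genes to Cxcl10 and the part of muscle in their signals were not tested.

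Cxcl14 and Cxcl17, CXC chemokines of epithelia, also had lower signals in visceral mesothelium but were not called. Cxcl14 was at 7.13 and 7.14 against 7.53 and 7.73 (difference -0.49, adjusted p = 0.0265), and Cxcl17 at 7.04 and 7.22 against 7.54 and 7.61 (-0.45, adjusted p = 0.0353). The monocyte attractant Ccl2 was at 8.15 and 8.10 in visceral and 7.81 and 7.62 in parietal arrays, a difference of 0.40 (adjusted p = 0.0485) under the fold threshold. Ccl5, a T cell attractant, was at 7.51 and 7.95 against 7.31 and 7.43 (0.36, adjusted p = 0.22). The remaining 23 ligands that were not called had differences between -0.13 and 0.24. Of these 23, 14 had overlapping arrays, as did 8711 of all 19938 genes. They include the neutrophil attractants Cxcl1, Cxcl2, Cxcl3 and Cxcl5, the inflammatory ligands Ccl3, Ccl4, Ccl7, Ccl8 and Ccl12, the ligands Ccl17, Ccl20 and Ccl22, and Cx3cl1. Their 95% intervals together ran from -0.36 to 0.56, which does not reach the 1.5-fold threshold in either direction. Their probes were mostly dim, with 4 of the 23 above the gene median (7.73). Over all 36 ligands, both visceral arrays stood above both parietal arrays for 15, against 28.9% of all genes, and the reverse held for 7, against 27.4% of all genes. The arrays of the tissues overlapped for 14 ligands, while 56.3% of all genes had no overlap.

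**Figure D2:**
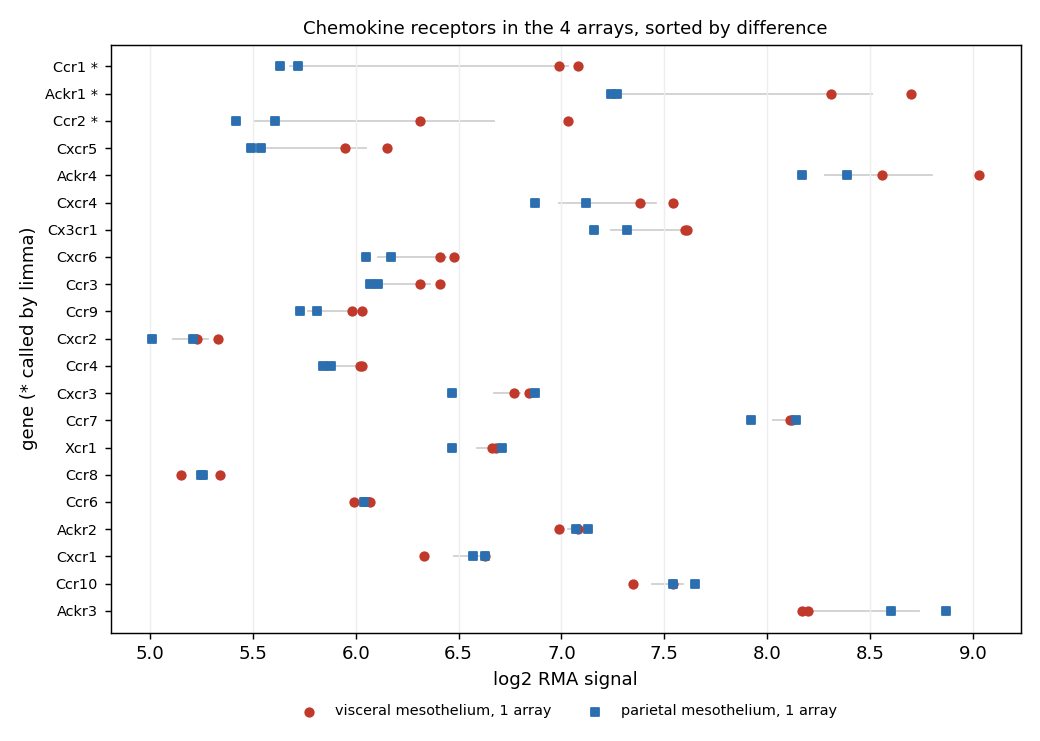
Log2 RMA signal (x axis) of the 21 chemokine receptors (y axis, sorted by difference). Circles are visceral and squares parietal arrays, 1 point per array, grey lines join the group means and asterisks mark genes called by limma; Ccr1, Ackr1 and Ccr2 have no overlap between tissues, and the visceral arrays of Ccr2 lie at 7.03 and 6.31.

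Among the CC receptors, Ccr1, found on monocytes, macrophages and neutrophils, had the largest difference. It was at 7.08 and 6.99 in visceral and 5.63 and 5.72 in parietal arrays, 2.56-fold higher in visceral mesothelium (difference 1.36, standard error 0.09, adjusted p = 0.000555). Ccr2, which brings monocytes out of the bone marrow, was at 7.03 and 6.31 against 5.61 and 5.42. The visceral arrays of Ccr2 were further apart than those of Ccr1, and the higher was visceral replicate 1, as for Ppbp. Its difference of 1.16 (standard error 0.24, 95% interval 0.57 to 1.74, adjusted p = 0.028) became 0.80 when visceral replicate 1 was left out and 1.52 when visceral replicate 2 was. With p-values adjusted over all 35556 probes Ccr2 was no longer called (adjusted p = 0.0799). The fractalkine receptor Cx3cr1 was at 7.61 and 7.60 against 7.16 and 7.32, a difference of 0.37 that was not called (adjusted p = 0.0524).

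Ackr1 carries chemokines across the endothelium of small veins and also occurs on red blood cells. Its signal was 8.31 and 8.70 in visceral and 7.27 and 7.24 in parietal arrays, a 2.38-fold difference (1.25, standard error 0.14, adjusted p = 0.00356). Genes of lymphatic and blood endothelium were divided. Of 17, 2 (11.8%, against 5.22% of all genes) were called higher in visceral mesothelium, Lyve1 (3.37) and Cd34 (0.77). Another 3 (17.6%, against 4.39% of all genes) were called higher in parietal mesothelium, Esam (-0.69), Cdh5 (-0.60) and Pdpn (-0.62), the last also a mesothelial gene. The other 12 were not called, among them Prox1 (0), Flt4 (-0.02), Pecam1 (0.24) and Tie1 (0.03). The median of all 17 was -0.01, and the list means were 8.33 and 8.41 in visceral against 8.25 and 8.29 in parietal arrays. Sele, an adhesion molecule of activated endothelium, differed by -0.16 and was not called. The part of endothelium in the Ackr1 signal was not tested. Ackr4, which removes Ccl19 and Ccl25, was at 8.56 and 9.03 against 8.17 and 8.39. This difference of 0.52 was not called (95% interval 0.09 to 0.94, adjusted p = 0.118), but it was 0.75 and called without visceral replicate 1 (adjusted p = 0.0369). Ackr2, a scavenger of inflammatory CC chemokines, differed by -0.07 with overlapping arrays.

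The 13 receptors other than Ccr1, Ccr2, Ackr1, Ackr3, Ackr4, Cxcr4, Cxcr5 and Cx3cr1 had differences of -0.15 to 0.34, with 95% intervals that together ran from -0.42 to 0.56. They include Cxcr6 (0.34, adjusted p = 0.0635), the gut-homing receptor Ccr9 (0.23) and, on T cells, Ccr4, Ccr6 and Ccr8 (0.16, -0.02 and -0.01). Among the 13 only Ccr7 had a mean signal over 7.73. Over all 21 receptors both visceral arrays stood above both parietal arrays for 12, against 28.9% of all genes, and both parietal arrays stood above for 2, Ackr3 and Ccr10, against 27.4% of all genes. The median difference was 0.17. Among 15 genes of T and NK cells, 3 were called, or 20.0% against 9.60% of all genes. Il7r (1.26) and Cd3g (0.72) were higher in visceral mesothelium and Thy1 (-0.87), a gene that stromal cells also express, in parietal mesothelium. The list means were 6.20 and 6.33 against 6.07 and 6.11, and Cd3e (0.41) and Cd8a (0.03) were not called. Of 17 genes of mast cells and granulocytes, 7 (41.2%, against 9.60% of all genes) were called, all higher in visceral mesothelium. The lowest adjusted p were those of Cpa3 (4.63), Tpsb2 (2.56) and Cma1 (1.78). The other 10 were not called, among them Ms4a2 (-0.38) and the eosinophil genes Siglecf (-0.08), Epx (0.01) and Prg2 (0.06). Over the list 15 differences were positive and 2 negative, with list means of 7.84 and 7.49 against 6.49 and 6.56. The part of these cells in the receptor signals was not tested.

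**Figure D3:**
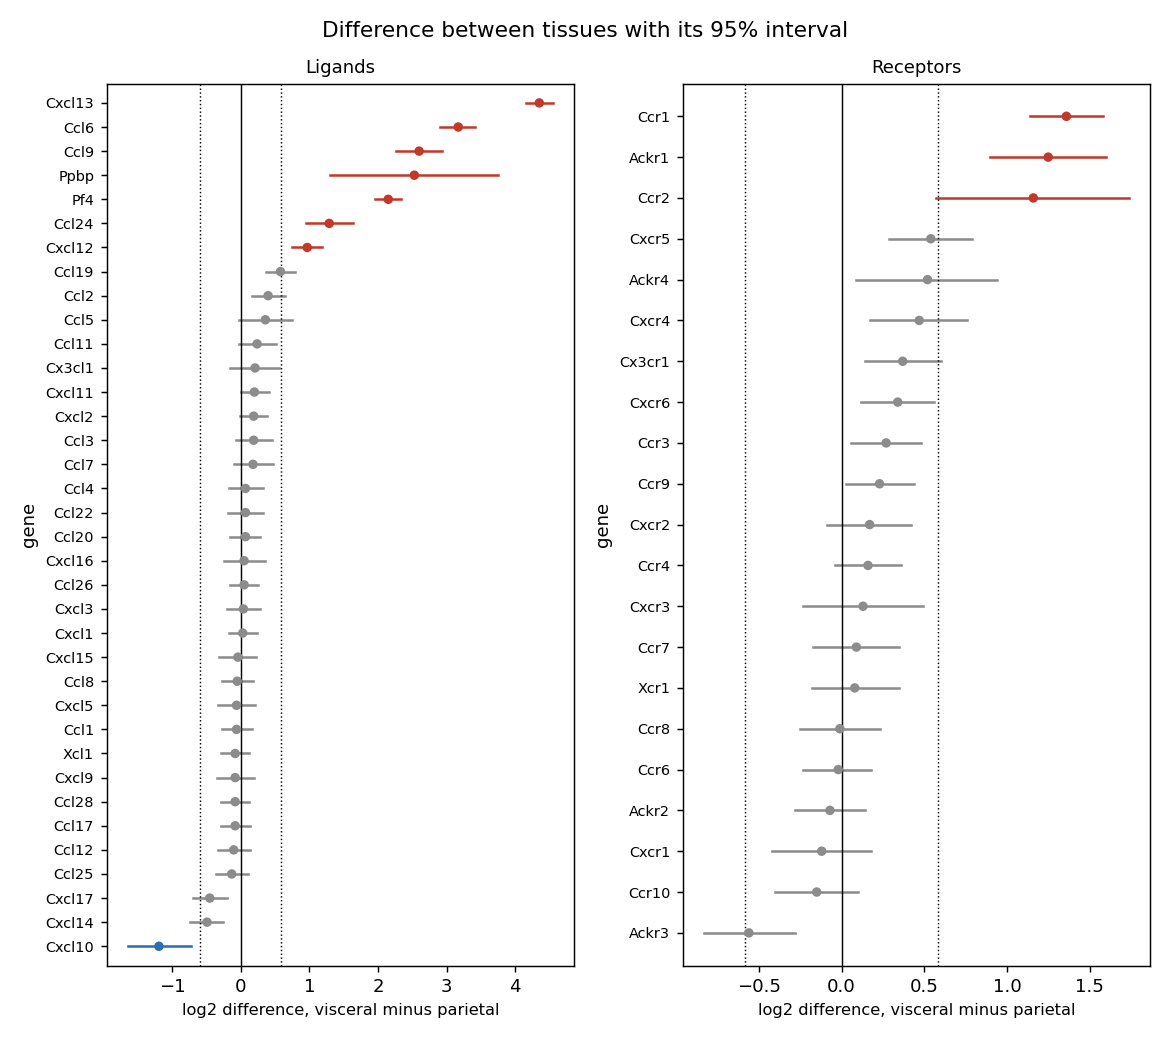
Log2 difference, visceral minus parietal (x axis), of each ligand and receptor (y axis), with its 95% interval from limma as a line. Red marks genes called higher in visceral and blue higher in parietal mesothelium, and dotted lines mark a 1.5-fold difference; the interval of Ppbp, 1.30 to 3.75, is the widest among the ligands.

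Ligands were set beside their receptors in 35 textbook pairs measured here. In 2 pairs, Ccl6 and Ccl9 with Ccr1, both partners were called higher in visceral mesothelium. In 6 pairs only the ligand was called, among them Cxcl13 with Cxcr5, Cxcl12 with Cxcr4 and Cxcl10 with Cxcr3. In another 6 only the receptor was called, namely Ccr1 with Ccl3, Ccl5 and Ccl7 and Ccr2 with Ccl2, Ccl7 and Ccl12. In 21 pairs neither was called. A pair was never called in opposite directions. The only member called higher in parietal mesothelium, Cxcl10, entered only the pair with Cxcr3, so there was little room for such a pair. Members such as Ccr1, Ccr2 and Cxcl12 recur in several pairs, so the counts are not independent. Partners were measured on the same arrays, so these counts describe the values and are not a test.

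Many chemokine genes lie in clusters, and called genes stood beside others that were not called. On chromosome 11, Ccl9 and Ccl6 were higher in visceral mesothelium by 2.60 and 3.17, while the genes flanking them in the same run, Ccl5 (0.36), Ccl3 (0.19) and Ccl4 (0.07), were not called. None of the 6 genes of the other run on that chromosome, Ccl2, Ccl7, Ccl11, Ccl12, Ccl8 and Ccl1, was called by limma, and only Ccl2 had a p under 0.05, adjusted or not. On chromosome 5, Ppbp (2.53) and Pf4 (2.15) were adjacent to Cxcl5 (-0.06) and Cxcl3 (0.04), and the remaining genes of that run, Cxcl15, Cxcl1 and Cxcl2, had differences of -0.04, 0.03 and 0.19. Elsewhere on that chromosome, Cxcl10 (-1.19) was next to Cxcl9 (-0.08), and Ccl24 (1.29) was next to Ccl26 (0.05). The receptor run on chromosome 9 held Ccr1 (1.36) and Ccr2 (1.16) with Ccr3 (0.27), Ccr9 (0.23), Cxcr6 (0.34) and Xcr1 (0.08). A run here is a set of members with at most 1 other protein-coding gene between them. These are single-gene calls, and differences between neighbours were not themselves tested.

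**Figure D4:**
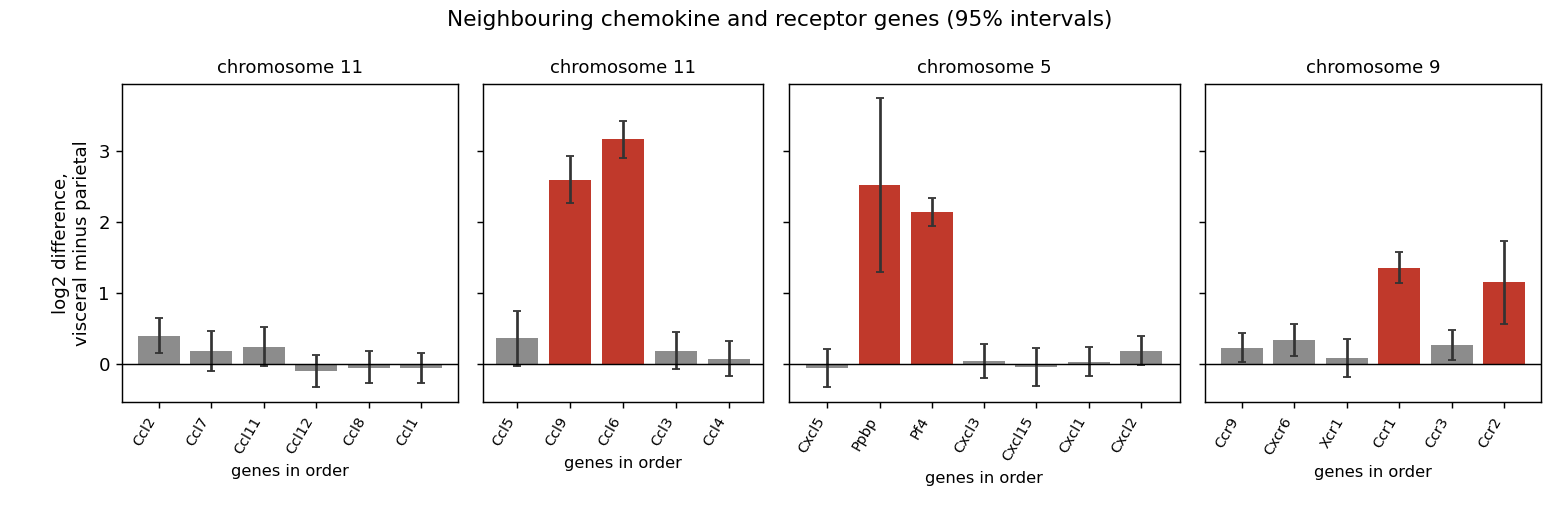
Log2 difference, visceral minus parietal (y axis), of members in runs of at least 5 neighbouring genes, in their order on the chromosome (x axis). Bars are differences, whiskers 95% intervals from limma, red bars genes called higher in visceral mesothelium and grey bars genes not called; Ccl9 and Ccl6 (2.60 and 3.17) stand between Ccl5 (0.36) and Ccl3 (0.19).

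Genes that act downstream of chemokine receptors included several of leukocyte migration with higher signals in visceral mesothelium. Of 33 measured, 11 were called toward visceral mesothelium and 1 toward parietal mesothelium, or 36.4% against 9.60% of all genes, with a median of 0.42. Dock2, which activates Rac in migrating leukocytes, was at 9.16 and 9.17 against 6.96 and 7.06 (difference 2.16, adjusted p = 0.000122). The lipid kinase subunit Pik3cg was higher by 1.66, the GTPase Rac2 by 1.36 and the G protein subunit Gng2 by 0.95. Both beta-arrestins, Arrb1 and Arrb2, which turn off and internalize receptors, were higher by 0.83 and 1.17, and the G protein regulators Rgs2 and Rgs16 by 0.80 and 1.36. Tiam1, another activator of Rac, was the gene called in the opposite direction (-0.74). The arrestins, Rgs genes and Tiam1 were named after their values were seen. Dock2, Pik3cg and Rac2 are expressed mainly in blood cells, and the macrophage list moved with them as given above. Its part in these differences was not tested.

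Cxcl10 is a target of interferon, and Cxcl13 and Ccl19 are targets of lymphotoxin and NF-kB, so genes of these pathways were examined beside them. Of 14 genes of the interferon response, 6 were called, all higher in visceral mesothelium, the direction opposite to that of Cxcl10. The lowest difference on the list was -0.07, that of Irf7. Examples are Ifit3 (1.83), Irf8 (1.09), Ifit2 (0.98) and Rsad2 (0.81). That is 42.9%, against 9.60% of all genes, with a median of 0.50. Ifit3 was at 10.08 and 10.41 in visceral and 8.39 and 8.44 in parietal arrays. The part of macrophages and other leukocytes in the differences of the interferon list was not tested. Of 18 genes of the lymphotoxin and NF-kB pathway, only the receptor Tnfrsf1b was called (0.71, higher in visceral mesothelium), which is 5.56% and near the background. The ligands Lta and Ltb and the receptor Ltbr, which induce Cxcl13 in lymphoid stroma, differed by -0.11, 0.19 and -0.08 and were not called. Nfkb2 differed by 0.33 and Relb by -0.13, also without a call. Lta, Ltb, Ltbr and Relb were given for their role and not by rank. The decoy receptor Tnfrsf11b had a difference of -1.18, but its arrays varied (9.95 and 9.01 against 11.00 and 10.32) and it was not called (adjusted p = 0.0936).

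Of 16 chemokine-like receptors and genes that bind or process chemokines, 6 were called, 4 toward visceral mesothelium and 2 toward parietal mesothelium. This is 37.5%, against 9.60% of all genes, and the median was 0.05. The chemoattractant chemerin, Rarres2, was at 12.65 and 12.59 in visceral and 13.66 and 13.56 in parietal arrays (difference -0.99, adjusted p = 0.00141). Its receptor Cmklr1, named for that reason, was higher in visceral mesothelium by 0.99, at 9.16 and 9.65 against 8.20 and 8.61 (adjusted p = 0.0297). Dpp4, a peptidase that clips the end of Cxcl12 and Cxcl10, was higher in parietal mesothelium (-0.68, adjusted p = 0.00438). The heparan sulfate proteoglycan Sdc3 was higher in visceral mesothelium by 1.49, and Cmtm3 by 0.99. The chemokine-like receptor Ccrl2 differed by -0.19 and was not called.

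**Figure D5:**
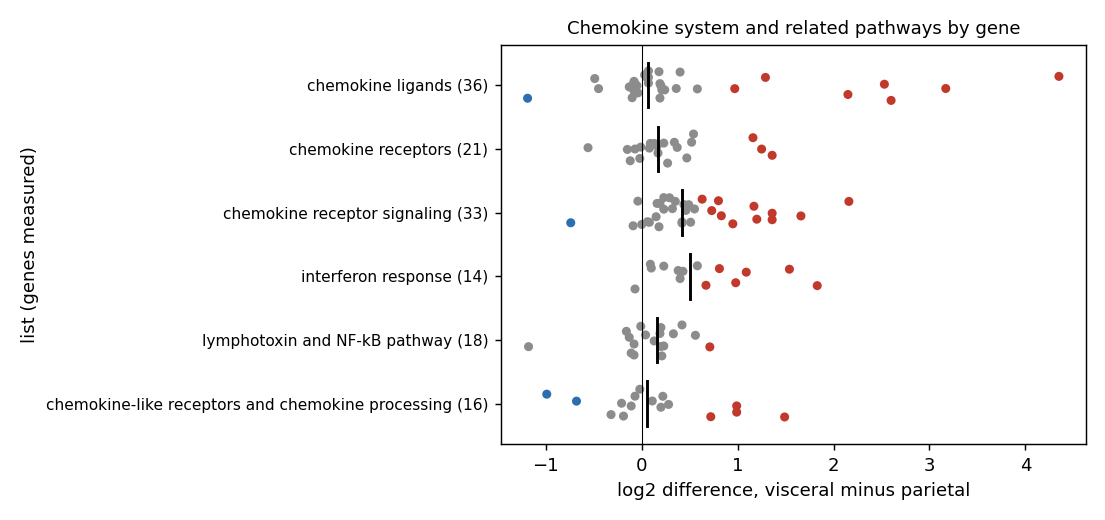
Log2 difference, visceral minus parietal (x axis), of the genes of the chemokine system and 4 related lists (y axis, with the number of genes measured). Each point is 1 gene, red if called higher in visceral, blue if called higher in parietal mesothelium and grey if not called, spread vertically for legibility, and black lines are medians; the interferon list has its median at 0.50 and no blue point.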

How the data were processed

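RNA of 2 visceral and 2 parietal samples was hybridized to Affymetrix Mouse Gene 1.0 ST arrays. The deposited values are log2 signals that the authors obtained with RMA (background correction, quantile normalization and a summary per probe set). The submitters' processing notes name Partek 6.6. RMA sets the arrays to a common distribution, so differences are relative to the other genes. No library file or annotation version is named in the sources used here.

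Symbols came from GEO's platform annotation. A single symbol was given for 21789 of 35556 probes, several for 1621 and none for 12146. A RefSeq table of GRCm38.p6 held 21698 of the first kind and changed 0 symbols. The probe with the highest mean was taken for each of 19938 genes, and limma 3.58.1 in R 4.3.3 was fitted to these on all 4 arrays without a block. The code was tested on simulated data. Groups came from the sample titles. The lists, the pairs, the motifs and the members were chosen with earlier results of these data known, and no set test was run. All members could be named, those called and up to 5 others of each class with per-array values, and of other lists up to 4 genes by lowest adjusted p, with defining markers. The number of arrays limits the precision. No scan date was used, so array batches were not analysed here.

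The alternatives were the methods' one-way ANOVA with and without adjustment, other fold thresholds, a trended robust prior, all probes, median centring, quantile normalization, a filter on dim genes, the mean of a gene's probes, the replicate number as a block, and omission of each array in turn.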

Additional observations from a re-analysis of the deposited data

How the results depend on the processing

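All 11 called members were called in the same direction with a trended robust prior, with median centring, with quantile normalization, with the mean of a gene's probes and with the replicate number as a block. Centring and quantile normalization could change little, since RMA had already quantile-normalized the values, with array medians of 7.38 to 7.41. The mean of a gene's probes left the values of the called members as they were, since each has 1 probe. The methods' one-way ANOVA was recomputed here on 1 probe for each gene. After adjustment it called 0 genes in either direction, and so 0 ligands, 0 receptors and 0 genes of the related lists. Its adjusted p-values for the called members were 0.0861 to 0.326. The paper reports probes that passed its adjusted ANOVA, and the reason for this difference was not examined. Without adjustment the recomputed ANOVA called 8 of the 11, losing Ccr2, Cxcl10 and Ppbp, so that 0 ligands were higher in parietal mesothelium. With no fold threshold, 17 members passed, adding Ccl19, Ccl2, Cxcr5, Ackr3, Cxcl14 and Cxcl17. Then 3 ligands and 1 receptor were higher in parietal mesothelium, and 1574 of all genes and 34 of the related lists were higher in visceral mesothelium. At a fold of at least 2, 10 members remained, without Cxcl12. Of all genes 521 were then higher in visceral and 457 in parietal mesothelium, and of the related lists 10 and 0. After quantile normalization 1 receptor, Ackr3, was called higher in parietal mesothelium. Among genes above the median signal only 1 receptor, Ackr1, was called, since Ccr1 and Ccr2 were not tested there, nor were Cxcl12 and Ppbp. On leaving out each array in turn, 0 to 2 ligands and 0 to 1 receptors were called higher in parietal mesothelium and 7 to 8 ligands and 3 to 5 receptors higher in visceral mesothelium. The lone array of a tissue is then assumed to vary like the others. The one call lost was that of Cxcl10, without visceral replicate 1, where Ackr4, Ccl19 and Cxcr5 were added. Without parietal replicate 1, Ackr3 and Cxcl14 were added, and without parietal replicate 2, Ccl19 and Cxcr4.

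No called member changed direction under any alternative run. Of the members that were not called, 16 with differences near 0 changed sign on leaving out an array, with ranges of -0.06 to 0.02 for Ccr6, -0.10 to 0.20 for Cxcl16, -0.17 to 0.01 for Cxcl9, -0.27 to 0.04 for Cxcr1, -0.02 to 0.16 for Ccl4 and for Ccl22, -0.12 to 0.03 for Ccl8, -0.10 to 0.08 for Ccr8, -0.05 to 0.14 for Cxcl3, -0.02 to 0.20 for Ccr7, -0.01 to 0.08 for Cxcl1, -0.07 to 0.33 for Cxcr3, -0.04 to 0.20 for Xcr1, -0.12 to 0.01 for Ccl1, -0.15 to 0.08 for Cxcl15 and -0.18 to 0.05 for Cxcl5. The cause was not tested. Arrays of the same replicate number deviated together (r = 0.36 over genes), but with 2 numbers this does not show that they are paired. With the replicate block 7 ligands and 3 receptors were called higher in visceral mesothelium, as without it. Most members lie below the median signal of all genes, where array signals resolve differences less well.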
